A study of Homo sapiens with 12 samples.

Results

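All 12 RNA-seq libraries of the series were used to find the genes whose response to lipopolysaccharide (LPS) depended on linc-ADAIN knockdown (KD). The cells were adipocytes at day 14 of differentiation from ASC52telo, a line of human adipose stromal cells immortalized with hTERT. They carried scramble shRNA or linc-ADAIN shRNA, and both were harvested untreated or 4 h after addition of LPS (100 ng/mL), which gave 4 groups of 3 libraries (scramble, scramble with LPS, KD and KD with LPS). Both shRNAs were delivered by lentivirus, the cells were sorted for the fluorescent protein on the vector, and all 4 groups were kept in the same medium with insulin and dexamethasone. For each gene the LPS log2 fold change in scramble was subtracted from that in KD. A positive difference, called the interaction here, means that LPS raised the gene more, or lowered it less, in KD. The interaction passed edgeR's test at an adjusted p under 0.05 in 219 of 17173 genes tested (1.28%), 162 with a positive value (0.943%) and 57 with a negative value (0.332%).

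LPS, a component of the outer membrane of Gram-negative bacteria, binds the receptor TLR4 with its partners MD-2 and CD14. Adaptors and kinases of the MYD88 and TRIF routes then activate the transcription factor NF-κB and the MAP kinases, and NF-κB switches on cytokines and chemokines together with its own inhibitors. Adipocytes and their precursors express this receptor, and in adipose tissue the cytokines they release draw in neutrophils and monocytes. linc-ADAIN is a long intergenic non-coding RNA of adipose tissue.

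Of the genes that rose with LPS, 5 are shown with the 250 bases before their RefSeq transcription start (GRCh38.p14). The rise of IL6, SDC4 and TNIP3 with LPS was larger in KD, that of GBP1 was seen in KD and not in scramble, and that of CXCL5 was smaller in KD. The windows are chr7:22726950-22727199 on the plus strand, and chr20:45348425-45348674, chr4:121227484-121227733, chr4:73998678-73998927 and chr1:89065209-89065458 on the minus strand, each written on the strand of the gene. They are shown because each holds the letters of at least 1 of the motifs searched, and genes whose fall with LPS was lost are not among them. The GBP1 window also holds a match to the CArG box bound by SRF, which is not marked. Capitals mark matches to the κB consensus bound by NF-κB, which in CXCL5 are a pair of overlapping matches, and in GBP1 a match to GAAA followed after any 2 bases by GAAA, the core of interferon-response elements, which there lies on the opposite strand.
IL6: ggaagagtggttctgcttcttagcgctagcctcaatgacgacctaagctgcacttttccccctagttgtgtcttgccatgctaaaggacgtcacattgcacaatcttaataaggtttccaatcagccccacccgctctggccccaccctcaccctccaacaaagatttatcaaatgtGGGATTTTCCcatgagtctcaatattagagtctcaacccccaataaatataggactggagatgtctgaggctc
SDC4: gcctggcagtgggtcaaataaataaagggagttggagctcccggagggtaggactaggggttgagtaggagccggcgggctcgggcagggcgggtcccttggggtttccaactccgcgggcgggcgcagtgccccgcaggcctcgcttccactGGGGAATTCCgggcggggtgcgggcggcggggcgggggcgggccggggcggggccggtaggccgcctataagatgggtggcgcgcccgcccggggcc
TNIP3: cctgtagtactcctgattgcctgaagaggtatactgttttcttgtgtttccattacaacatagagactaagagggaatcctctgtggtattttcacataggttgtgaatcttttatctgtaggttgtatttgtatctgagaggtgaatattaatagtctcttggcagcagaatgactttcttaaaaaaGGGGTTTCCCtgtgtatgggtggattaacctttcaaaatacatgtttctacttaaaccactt
CXCL5: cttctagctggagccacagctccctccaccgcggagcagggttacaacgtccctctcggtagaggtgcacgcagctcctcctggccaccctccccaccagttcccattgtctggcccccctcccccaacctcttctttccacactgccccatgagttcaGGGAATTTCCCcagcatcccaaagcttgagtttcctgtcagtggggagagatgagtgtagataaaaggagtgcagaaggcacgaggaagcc
GBP1: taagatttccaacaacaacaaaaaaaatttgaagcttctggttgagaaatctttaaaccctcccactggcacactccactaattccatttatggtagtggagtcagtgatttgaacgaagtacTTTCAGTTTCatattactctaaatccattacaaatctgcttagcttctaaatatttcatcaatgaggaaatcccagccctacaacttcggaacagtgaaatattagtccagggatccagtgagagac

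A match in such a window is a description of its letters. RefSeq promoters were found for 176 of the 219 genes, and 28 of them (15.9%) held a κB match on either strand, against 11.6% of the 12520 promoters of genes tested and 9.57% of all 27305 promoters. Among genes whose rise was larger in KD, 6 of 17 windows held one (35.3%), but with the rises seen in KD only the share was 9 of 53 (17.0%). It was 13 of 67 (19.4%) among genes whose fall was smaller in KD or seen in scramble only, and 5 of 46 (10.9%) among genes with a negative interaction. The AP-1 letters TGANTCA stood in 8.52% of the windows of the 219 genes and 4.38% of those of genes tested, the CArG box bound by SRF in 2.84% and 1.11%, and the spaced GAAA pair in 3.41% and 2.59%.

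Counts on named genes totalled 28.4 to 53.8 M (units of 1e6) per library, with group medians of 53.5 M in scramble, 40.8 M in scramble with LPS, 38.5 M in KD and 34.8 M in KD with LPS. Levels are given per library as CPM (counts per 1e6 after TMM scaling), in the order of replicates 1, 2 and 3. The 3 libraries of a group came from 1 experiment, so the spread is that within the experiment, and an exact permutation test (two-sided) of 3 libraries against 3 cannot give a p below 0.1. Genes of the adipocyte set (8 markers) were all detected, with LEP and LPL near 0. Their summed level was 2800 to 3920 CPM in scramble and 3330 to 3770 CPM in scramble with LPS, but 558 to 1650 CPM in KD and 467 to 1090 CPM in KD with LPS. The stromal and preadipocyte set summed to 2890 to 2960 CPM in scramble and 2620 to 2800 CPM with LPS, and to 1810 to 1870 CPM in KD and 1540 to 1660 CPM with LPS. The macrophage set was low, at 59.0 to 74.6 CPM in the scramble libraries and 82.1 to 121 CPM in the KD libraries, which were all higher, and its markers AIF1 and TYROBP were at 0 in every group. In bulk RNA, fewer cells of a type and less RNA per cell cannot be told apart, nor can linc-ADAIN loss and any other difference between both sorted populations. The level of linc-ADAIN was not analysed here.

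LPS moved a similar number of genes under both shRNAs. In the same 12-library fit, 2299 genes responded in scramble (13.4%), 906 higher (5.28%) and 1393 lower (8.11%), and 2026 responded in KD (11.8%), 895 higher (5.21%) and 1131 lower (6.59%). Of 461 genes that rose under both shRNAs, 433 had no called interaction, and of 701 that fell under both, 678 had none. The 219 genes with a called interaction divided into 83 that responded in scramble only (37.9%), 65 that responded in KD only (29.7%), 27 with a smaller response in KD (12.3%), 24 with a larger one (11.0%) and 20 in which the sign of the response was reversed (9.13%). Of the 162 genes with a positive interaction, 96 fell with LPS in scramble, 79 rose with LPS in KD, and 13 did both. The median size of a called interaction was 0.83 on the log2 scale, a ratio of folds of 1.78, with a median standard error of 0.16.

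**Figure D1:**
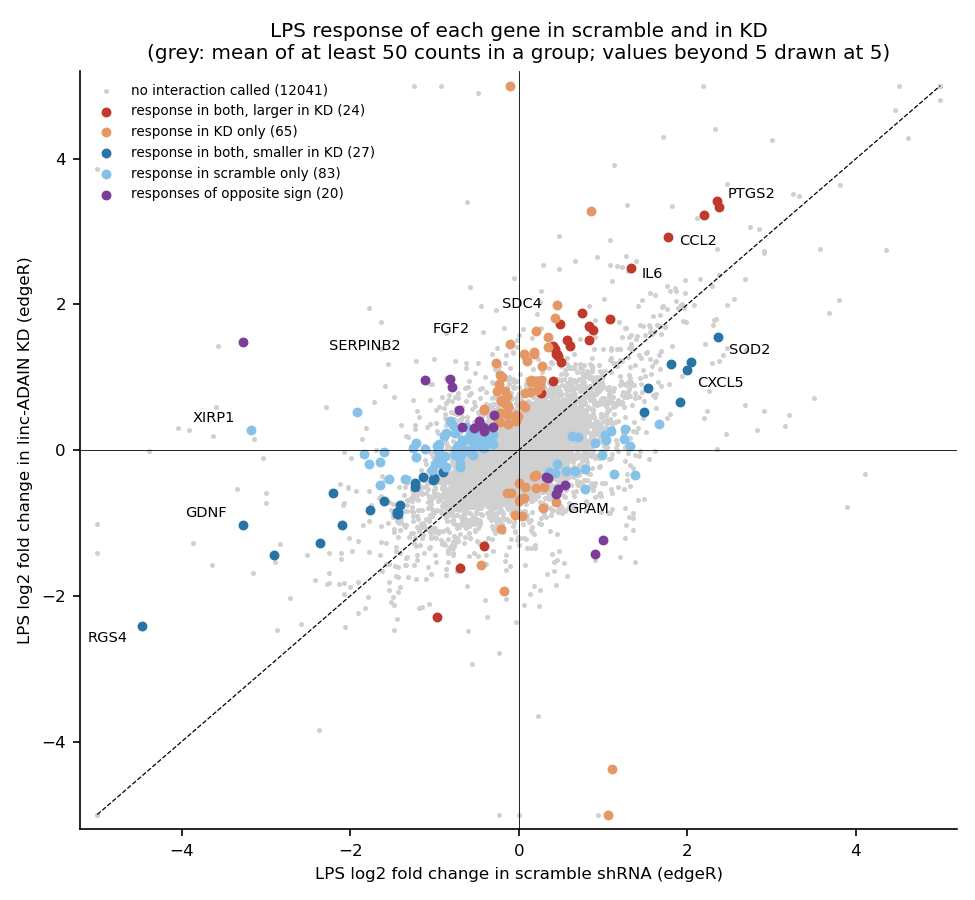
LPS log2 fold change of each gene in scramble (horizontal) and in KD (vertical) from edgeR, with the 219 genes with a called interaction coloured by class, other genes averaging at least 50 counts in a group in grey, and a dashed line of equal responses. Red points of genes with a larger rise in KD lie above the line at the right (SDC4, IL6, CCL2, PTGS2). Orange points, with a response in KD only, mostly lie near a scramble value of 0 (FGF2). Light blue points lie near a KD value of 0 (XIRP1), and purple points lie in the quadrants of opposite signs (SERPINB2, GPAM).

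Cytokine, chemokine and NF-κB feedback genes were found among the 21 genes that rose under both shRNAs and rose more in KD. SDC4, the cell-surface heparan sulfate proteoglycan syndecan-4, had the smallest p of all genes. It was at 248, 283 and 291 CPM in scramble, 342, 414 and 399.7 CPM in scramble with LPS, 375, 359 and 373 CPM in KD and 1224, 1216 and 1222 CPM in KD with LPS. The KD libraries with LPS lay above all other libraries, while KD without LPS overlapped scramble with LPS. SDC4 rose by 0.49 on the log2 scale in scramble and 1.73 in KD (interaction 1.24, standard error 0.11, adjusted p = 4.47e-05 by edgeR's quasi-likelihood test, as for each interaction below).

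IL6, which encodes the cytokine interleukin-6, was at 46.5, 55.0 and 56.0 CPM in scramble, 119, 141 and 136 CPM in scramble with LPS, 92.7, 95.2 and 81.3 CPM in KD and 499, 486 and 538 CPM in KD with LPS. Its 4 groups did not overlap, and the LPS response was 1.33 in scramble and 2.50 in KD (interaction 1.17, standard error 0.13, adjusted p = 0.000139). CCL2, the monocyte chemoattractant MCP-1, was at 95.8, 176 and 167 CPM in scramble, 412, 539.6 and 551 CPM in scramble with LPS, 144, 120.2 and 131 CPM in KD and 993, 961 and 1044 CPM in KD with LPS. Without LPS the scramble and KD libraries of CCL2 overlapped, and with LPS they did not, KD being the higher, with responses of 1.77 in scramble and 2.92 in KD (interaction 1.15, standard error 0.23, adjusted p = 0.0163). PTGS2, the inducible cyclooxygenase of prostaglandin synthesis, was at 5.81, 7.26 and 7.48 CPM in scramble, 31.4, 37.7 and 37.8 CPM in scramble with LPS, 31.2, 35.8 and 21.8 CPM in KD and 305, 253 and 344 CPM in KD with LPS. KD without LPS overlapped scramble with LPS, and LPS then added 2.38 on the log2 scale in scramble and 3.34 in KD (interaction 0.96, standard error 0.22, adjusted p = 0.034).

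Some genes of NF-κB signalling and its feedback had a called interaction. TNIP3, a partner of the inhibitor A20, was at 2.05, 1.52 and 1.57 CPM in scramble, 7.82, 9.31 and 9.12 CPM in scramble with LPS, 4.41, 3.40 and 3.36 CPM in KD and 38.9, 38.3 and 42.0 CPM in KD with LPS, and its 4 groups did not overlap (interaction 1.07, standard error 0.22, adjusted p = 0.0196). IRAK2, a kinase of the MYD88 route, responded by 0.47 in scramble and 1.29 in KD (interaction 0.82, standard error 0.17, adjusted p = 0.0196), and ZC3H12C, an RNase of the family that degrades cytokine mRNAs, by 0.50 in scramble and 1.21 in KD (interaction 0.71, standard error 0.14, adjusted p = 0.0196). In the list of NF-κB subunits and feedback genes, 18 of 22 rose with LPS in scramble and 19 in KD. Of the 22, TNIP3 and IRAK2 passed the interaction test (9.09%, against 1.28% of all genes tested). The list median was 0.19, or 0.11 without scramble LPS replicate 1, beside 0.01 for all genes tested. The feedback gene NFKBIA responded by 1.15 in scramble and 1.19 in KD (interaction 0.04, adjusted p = 0.993), and TNFAIP3, which encodes A20, by 1.86 in scramble and 2.23 in KD (interaction 0.37, adjusted p = 0.195).

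CFB, complement factor B of the alternative pathway, was at 11.8, 14.7 and 15.3 CPM in scramble, 43.2, 76.9 and 71.9 CPM in scramble with LPS, 11.3, 11.1 and 10.7 CPM in KD and 106, 109.6 and 94.0 CPM in KD with LPS. The LPS response was 2.20 in scramble and 3.23 in KD (interaction 1.03, standard error 0.23, adjusted p = 0.03). TSC22D1, a leucine-zipper transcription regulator, responded by 0.40 in scramble and 1.42 in KD (interaction 1.02, standard error 0.12, adjusted p = 0.000248), and the guanylate-binding protein GBP3 by 0.88 in scramble and 1.65 in KD (interaction 0.77, standard error 0.17, adjusted p = 0.0324). In 20 of the 21 genes with a larger rise, the 3 KD libraries with LPS lay above the other 9, which held in 5.69% of all genes tested, but these genes were chosen by the same values. CCL2 lost its call without scramble replicate 2 (adjusted p up to 0.0567), PTGS2 without scramble replicate 2 or 3, scramble LPS replicate 1, 2 or 3, KD replicate 1 or KD LPS replicate 1 or 3 (adjusted p up to 0.111) and with filterByExpr, a stricter filter on low counts (0.0541), TNIP3 without scramble replicate 1 or KD LPS replicate 3 (adjusted p up to 0.0649), CFB without scramble replicate 2 or 3, KD replicate 1, 2 or 3 or KD LPS replicate 1 or 2 (adjusted p up to 0.0903), IRAK2 without scramble replicate 2, scramble LPS replicate 3 or KD LPS replicate 3 (adjusted p up to 0.0738), ZC3H12C without scramble replicate 2 or KD LPS replicate 1 or 3 (adjusted p up to 0.0579) and GBP3 without scramble replicate 2 or 3, scramble LPS replicate 1 or 2, KD replicate 1, 2 or 3 or KD LPS replicate 1, 2 or 3 (adjusted p up to 0.0848), while SDC4, IL6 and TSC22D1 kept theirs with each library left out.

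**Figure D2:**
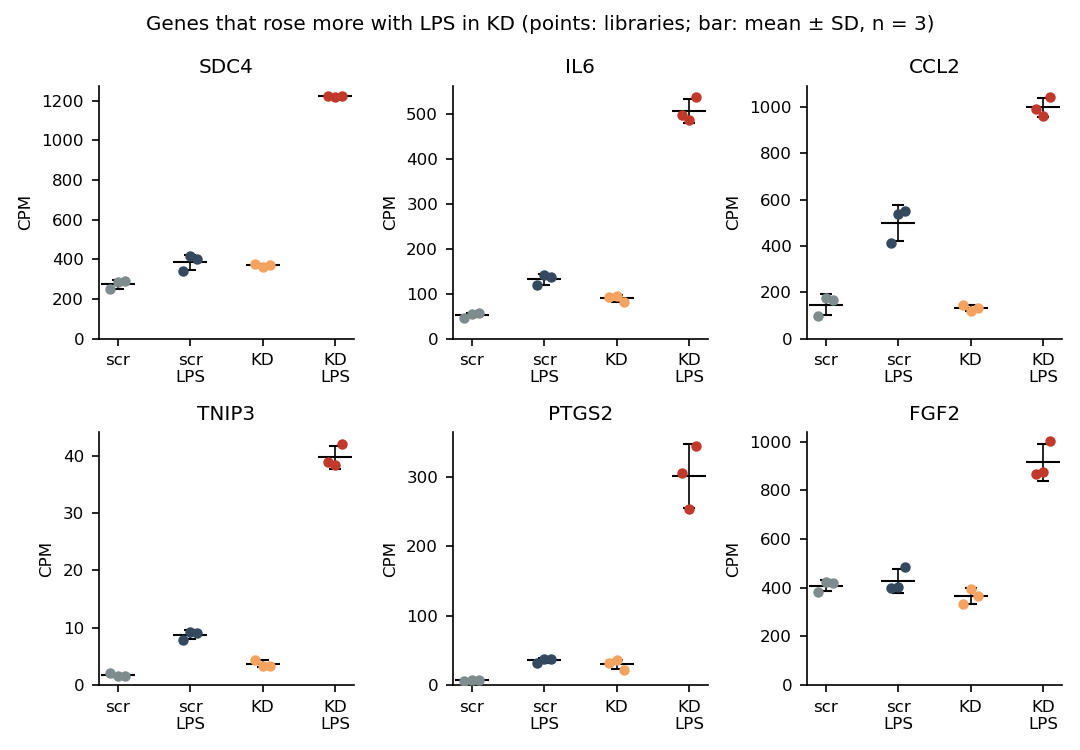
CPM per library (points) with mean ± SD (n = 3) for 6 genes that rose more with LPS in KD, in scramble (scr) and KD without and with LPS. The KD libraries with LPS are the highest in each panel, at 1216 to 1224 CPM for SDC4 against at most 414 CPM elsewhere.

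The larger rise did not extend to all inflammatory genes. All 6 neutrophil chemokines of the CXCL family rose with LPS under both shRNAs. Only CXCL5 passed edgeR's interaction test (16.7%, against 1.28% of all genes tested), with a smaller rise in KD. At an unadjusted p under 0.05 there were 4 of the 6. With DESeq2, 2 were called with a positive and 1 with a negative value, and with no filter 1 and 2. CXCL8, which encodes IL-8, was at 123, 152 and 148 CPM in scramble, 436, 427 and 493 CPM in scramble with LPS, 427, 438 and 436 CPM in KD and 1516, 1439 and 1740.0 CPM in KD with LPS. Both KD groups of CXCL8 lay above the scramble groups given the same treatment, and the responses of 1.68 in scramble and 1.85 in KD did not differ beyond the spread between libraries (interaction 0.17, standard error 0.13, adjusted p = 0.691). The interactions of CXCL1, CXCL2 and CXCL3 were 0.32, 0.06 and 0.51 (adjusted p = 0.118, 0.933 and 0.0513), and that of CXCL6 was -0.49 (adjusted p = 0.19). Among 12 CC and CX3C chemokines, 7 rose in scramble and 9 in KD, and CCL2 alone passed the interaction test (8.33%). CCL5 responded by 3.00 in scramble and 4.25 in KD (interaction 1.25, adjusted p = 0.0957).

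IL1B, which encodes interleukin-1β, was at 0.664, 0.894 and 1.78 CPM in scramble, 4.30, 5.88 and 7.99 CPM in scramble with LPS, 11.6, 8.78 and 12.5 CPM in KD and 116, 125 and 174 CPM in KD with LPS. The 3 KD libraries with LPS stood far above the rest, but the interaction did not pass the test (interaction 1.19, standard error 0.38, adjusted p = 0.166), although it did with no filter on low counts and with the replicate block (adjusted p = 0.0125 and 0.0223). CSF1, the macrophage growth factor M-CSF, responded by 0.75 in scramble and 1.05 in KD (interaction 0.30, standard error 0.12, adjusted p = 0.333). KLF5, a transcription factor of early adipogenesis, was at 0.589, 0.856 and 0.709 CPM in scramble, 1.92, 2.77 and 4.64 CPM in scramble with LPS, 2.22, 4.85 and 3.75 CPM in KD and 35.4, 29.4 and 34.5 CPM in KD with LPS, and its interaction did not pass either (interaction 1.07, standard error 0.42, adjusted p = 0.312). TNF was close to the limit of detection, at 0.0186 to 0.668 CPM in the 12 libraries, so an interaction of TNF was not detectable at this depth (interaction 0.76, standard error 1.75, adjusted p = 0.964). CXCL10, an interferon-induced chemokine, had 0, 0 and 0 counts in scramble, 5, 2 and 4 in scramble with LPS, 0, 0 and 0 in KD and 16, 82 and 36 in KD with LPS. All 3 counts in KD with LPS were above those in scramble with LPS, but with both groups without LPS at 0 counts no interaction of CXCL10 could be estimated.

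Interferon-stimulated genes did not move together. Of 29 tested, 3 passed the interaction test (10.3%, against 1.28% of all genes tested), and the list median was -0.03. All 3 were guanylate-binding proteins with a positive value. Guanylate-binding proteins are interferon-inducible GTPases of host defence. GBP1 was at 52.9, 72.6 and 70.3 CPM in scramble, 67.5, 72.2 and 86.4 CPM in scramble with LPS, 25.1, 23.9 and 24.3 CPM in KD and 70.3, 72.4 and 85.2 CPM in KD with LPS. The KD libraries without LPS were the lowest of GBP1, and those with LPS lay in the range of scramble with LPS, with responses of 0.21 in scramble and 1.64 in KD (interaction 1.43, standard error 0.17, adjusted p = 0.000241). GBP2 was at 20.8, 31.1 and 39.1 CPM in scramble, 34.4, 48.4 and 42.0 CPM in scramble with LPS, 17.4, 15.2 and 13.8 CPM in KD and 60.7, 60.0 and 64.4 CPM in KD with LPS, and there the KD libraries with LPS were the highest (interaction 1.54, standard error 0.24, adjusted p = 0.00235). By contrast, IFIT2 and IFIT3, antiviral proteins that bind foreign RNA, had interactions of -0.80 and -0.55 that did not pass (adjusted p = 0.297 and 0.364).

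Secreted growth factors held the most called genes of any list, 7 of 35 (20.0%, against 1.28% of all genes tested), all with a positive interaction. The list median was 0.29, or 0.50 without scramble LPS replicate 2, and 4 members were called without scramble replicate 2, KD replicate 1 or KD LPS replicate 2. Of the 35, 1 rose and 10 fell with LPS in scramble, whereas 7 rose and 6 fell in KD. FGF2, basic fibroblast growth factor, was at 382, 424 and 420.1 CPM in scramble, 397, 401 and 485 CPM in scramble with LPS, 332, 396 and 367 CPM in KD and 866, 876 and 1004 CPM in KD with LPS. KD with LPS lay above the other 9 libraries, and the response of FGF2 passed the test in KD only (interaction 1.26, standard error 0.13, adjusted p = 0.000109). EREG, the EGF receptor ligand epiregulin, was at 301, 242 and 252 CPM in scramble, 236, 197 and 246 CPM in scramble with LPS, 275, 317 and 236 CPM in KD and 566, 491 and 645 CPM in KD with LPS, again highest in KD with LPS (interaction 1.26, standard error 0.17, adjusted p = 0.000729). BDNF, a neurotrophin, responded by -0.41 in scramble and 0.56 in KD (interaction 0.97, standard error 0.21, adjusted p = 0.0244).

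GDNF, a neurotrophic factor for dopaminergic and motor neurons, was at 11.1, 14.2 and 8.34 CPM in scramble, 0.895, 1.75 and 0.914 CPM in scramble with LPS, 17.2, 20.1 and 22.2 CPM in KD and 9.65, 8.60 and 11.1 CPM in KD with LPS. It fell by 3.27 on the log2 scale in scramble and by 1.02 in KD (interaction 2.24, standard error 0.33, adjusted p = 0.00151). As an amount in CPM the mean fall of GDNF was about the same under both shRNAs. In 2 of the 20 genes with a fold that fell less in KD, the fall in CPM was not smaller there. STC2, the glycoprotein stanniocalcin-2, fell with LPS in scramble only (interaction 0.98, standard error 0.20, adjusted p = 0.0207). WNT2, a Wnt ligand, had 215, 339 and 220 counts in scramble, 125, 181 and 213 in scramble with LPS, 0, 0 and 0 in KD and 8, 11 and 1 in KD with LPS. Its interaction passed the test (interaction 6.01, standard error 1.23, adjusted p = 0.0228), but with 0 counts in every KD library without LPS its fitted value depends on the count added by the fit and gives no fold.

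Among the growth factors not called, VEGFA responded by -0.92 in scramble and -0.83 in KD (interaction 0.09, adjusted p = 0.914), and HBEGF responded by -1.75 in scramble and -0.75 in KD (interaction 1.00, adjusted p = 0.296). The calls of FGF2, EREG and GDNF held with each library left out. That of BDNF was lost without scramble replicate 1 or 2, scramble LPS replicate 2, KD replicate 1 or 3 or KD LPS replicate 2 or 3 (adjusted p up to 0.0807), that of STC2 without scramble replicate 1 or 2, scramble LPS replicate 1 or 3, KD replicate 1 or KD LPS replicate 2 or 3 (adjusted p up to 0.0659) and that of WNT2 without scramble replicate 2, KD replicate 1 or 2 or KD LPS replicate 1 or 2 (adjusted p up to 0.0774).

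Other genes that rose with LPS in KD and not in scramble came from several pathways. This class held 45 genes, and in 38 of them KD with LPS lay above the other 9 libraries, against 5.69% of all genes tested, in genes chosen by the same values. RCAN1, an inhibitor of the phosphatase calcineurin, was at 174, 175 and 139 CPM in scramble, 145, 128 and 150.2 CPM in scramble with LPS, 237, 245 and 209 CPM in KD and 458, 443 and 487 CPM in KD with LPS. KD with LPS was again the highest group (interaction 1.21, standard error 0.13, adjusted p = 0.000139). GRAMD1A, which carries sterols between membranes, was at 33.4, 27.0 and 29.1 CPM in scramble, 31.8, 38.8 and 30.8 CPM in scramble with LPS, 39.4, 35.2 and 38.3 CPM in KD and 91.9, 102 and 94.0 CPM in KD with LPS (interaction 1.17, standard error 0.15, adjusted p = 0.000347). FAS, a death receptor of the TNF receptor superfamily, was at 43.8, 43.3 and 42.2 CPM in scramble, 51.4, 40.4 and 51.4 CPM in scramble with LPS, 43.8, 43.0 and 46.8 CPM in KD and 86.6, 79.2 and 89.8 CPM in KD with LPS. Its first 3 groups overlapped (interaction 0.79, standard error 0.13, adjusted p = 0.00546).

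INSIG1, which holds the sterol-regulated factor SREBP in the endoplasmic reticulum, responded by -0.21 in scramble and 0.69 in KD (interaction 0.90, standard error 0.18, adjusted p = 0.0153). DUSP16, a phosphatase of the MAP kinases JNK and p38, responded by -0.26 in scramble and 1.19 in KD (interaction 1.46, standard error 0.30, adjusted p = 0.0202), and the early-response gene IER3 by -0.13 in scramble and 0.59 in KD (interaction 0.72, standard error 0.17, adjusted p = 0.047). The call of INSIG1 was lost without scramble replicate 2 or KD LPS replicate 3 (adjusted p up to 0.0567), that of DUSP16 without scramble replicate 2, scramble LPS replicate 3, KD replicate 1 or 2 or KD LPS replicate 1 or 2 (adjusted p up to 0.073) and that of IER3 without scramble replicate 1 or 2, scramble LPS replicate 1 or 3, KD replicate 1, 2 or 3 or KD LPS replicate 2 or 3 (adjusted p up to 0.153). IER3 also lost it with DESeq2's size factors in edgeR, with library size only and with filterByExpr (adjusted p = 0.0509, 0.0591 and 0.062).

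Among genes of the actin cytoskeleton and contraction, falls with LPS in scramble were common. Of 21 measured members of the list, 14 fell in scramble and 9 in KD, and 20 had a response that was more positive in KD, of which 4 passed the test (XIRP1, SYNPO2, CCN2 and AMOTL2). Of all 17173 genes tested, 1393 fell in scramble and 1131 in KD. A more positive response in KD was seen in 8796 of them, of which 162 passed the test. The list median was 0.45. XIRP1, the actin-binding protein Xin, was at 16.2, 21.3 and 11.3 CPM in scramble, 1.64, 1.19 and 2.51 CPM in scramble with LPS, 7.14, 5.37 and 5.68 CPM in KD and 5.83, 7.03 and 9.14 CPM in KD with LPS. It fell by 3.18 on the log2 scale in scramble, where no library with LPS came near the untreated range, while both KD groups overlapped (interaction 3.45, standard error 0.38, adjusted p = 0.000139). SYNPO2, which binds actin at the Z-disc, was at 19.4, 30.8 and 33.6 CPM in scramble, 12.1, 16.1 and 20.1 CPM in scramble with LPS, 13.7, 11.0 and 15.6 CPM in KD and 28.0, 21.9 and 24.0 CPM in KD with LPS. It fell in scramble and rose in KD (interaction 1.66, standard error 0.28, adjusted p = 0.00546). CCN2, the matricellular factor CTGF and a target of the YAP and SRF programmes, was at 336, 369 and 354 CPM in scramble, 100.0, 93.6 and 118 CPM in scramble with LPS, 258, 289 and 397 CPM in KD and 140.1, 171 and 223 CPM in KD with LPS. It fell under both shRNAs, by 1.76 on the log2 scale in scramble and by 0.82 in KD (interaction 0.94, standard error 0.21, adjusted p = 0.0371).

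AMOTL2, an angiomotin that binds YAP, responded by -0.37 in scramble and 0.25 in KD (interaction 0.61, standard error 0.14, adjusted p = 0.0367). The smooth-muscle genes TAGLN and CNN1 responded by -1.27 in scramble and -0.83 in KD and by -2.51 in scramble and -1.44 in KD, and their interactions of 0.44 and 1.07 did not pass (adjusted p = 0.387 and 0.402). CCN2 lost its call without scramble replicate 1, 2 or 3, scramble LPS replicate 1 or 2, KD replicate 1 or 2 or KD LPS replicate 2 or 3 (adjusted p up to 0.111) and with filterByExpr (0.0572), and AMOTL2 without scramble replicate 1 or 2, scramble LPS replicate 1, KD replicate 1 or 2 or KD LPS replicate 1, 2 or 3 (adjusted p up to 0.132) and with library size only (0.0537).

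Of the matrix metalloproteinases, MMP3 and MMP10 had a called interaction and were higher in KD. MMP3, stromelysin-1, was at 98.4, 124 and 83.6 CPM in scramble, 26.5, 23.7 and 35.4 CPM in scramble with LPS, 615, 542 and 592 CPM in KD and 478, 480.4 and 729 CPM in KD with LPS. LPS lowered MMP3 in scramble, and the KD groups overlapped each other far above both scramble groups (interaction 1.78, standard error 0.23, adjusted p = 0.000619). MMP10, stromelysin-2, had 12, 8 and 10 counts in scramble, 2, 0 and 0 in scramble with LPS, 43, 49 and 75 in KD and 132, 173 and 107 in KD with LPS. With at most 2 counts per library in scramble with LPS its fitted interaction depends on the count added by the fit (interaction 4.76, standard error 0.92, adjusted p = 0.013). MMP1, interstitial collagenase, responded by -0.49 in scramble and 1.19 in KD, which did not pass the interaction test (interaction 1.68, adjusted p = 0.0569). In the list of metalloproteinases and their inhibitors, 2 of 18 were called, both positive (11.1%, against 1.28% of all genes tested), and the median was 0.25, or 0.080 without scramble replicate 2.

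A fall in scramble that was not called in KD was also found in TLR4, MAP2K3 and IL1RAP. TLR4, the LPS receptor, was at 16.3, 15.1 and 11.5 CPM in scramble, 9.05, 7.40 and 7.22 CPM in scramble with LPS, 12.4, 13.4 and 15.2 CPM in KD and 12.6, 18.8 and 16.7 CPM in KD with LPS. LPS lowered TLR4 in scramble, and in KD the groups overlapped (interaction 1.09, standard error 0.24, adjusted p = 0.0302). IL1RAP, the shared chain of the receptors for IL-1 and IL-33, was at 109, 100.3 and 105 CPM in scramble, 52.2, 51.7 and 56.1 CPM in scramble with LPS, 31.4, 27.6 and 23.7 CPM in KD and 27.8, 23.8 and 22.6 CPM in KD with LPS. KD libraries were lower than all scramble libraries, with no further fall called in KD (interaction 0.82, standard error 0.14, adjusted p = 0.0072). MAP2K3, the kinase above p38, was at 246, 272 and 214 CPM in scramble, 104, 126 and 129.8 CPM in scramble with LPS, 136, 123 and 136 CPM in KD and 106, 112 and 109 CPM in KD with LPS. KD without LPS overlapped scramble with LPS, and the response was -1.03 in scramble and -0.28 in KD (interaction 0.75, standard error 0.13, adjusted p = 0.00782). Of 22 genes of LPS reception and signal transduction, TLR4 and MAP2K3 were the called ones (9.09%, against 1.28% of all genes tested). MYD88 responded by -0.19 in scramble and -0.44 in KD (interaction -0.24, adjusted p = 0.524). TLR4 lost its call without scramble replicate 1 or 2, scramble LPS replicate 2 or 3, KD replicate 1 or 2 or KD LPS replicate 2 or 3 (adjusted p up to 0.095).

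Genes with other roles shared a lost, smaller or reversed fall. SERPINB2, the plasminogen activator inhibitor PAI-2, was at 167, 232 and 151 CPM in scramble, 95.7, 95.9 and 121 CPM in scramble with LPS, 291, 301 and 285 CPM in KD and 544, 490.1 and 686 CPM in KD with LPS. Its 4 groups did not overlap, and LPS lowered it in scramble and raised it in KD (interaction 1.79, standard error 0.20, adjusted p = 0.000146). SLC2A1, the basal glucose transporter GLUT1, was at 72.5, 74.9 and 87.2 CPM in scramble, 41.3, 53.8 and 48.8 CPM in scramble with LPS, 52.0, 51.1 and 57.5 CPM in KD and 69.5, 81.0 and 84.3 CPM in KD with LPS. KD with LPS returned to the range of untreated scramble (interaction 1.25, standard error 0.15, adjusted p = 0.000248). MEF2A, a MADS-box transcription factor, was at 72.0, 80.2 and 72.8 CPM in scramble, 44.2, 46.5 and 49.8 CPM in scramble with LPS, 57.3, 63.6 and 52.7 CPM in KD and 74.7, 69.6 and 72.8 CPM in KD with LPS, with a reversal of the same form (interaction 1.00, standard error 0.12, adjusted p = 0.000289).

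KLF6, a zinc-finger transcription factor of the immediate early kind, was at 378, 373 and 336 CPM in scramble, 174, 145 and 176 CPM in scramble with LPS, 375, 389 and 386 CPM in KD and 293, 290.4 and 305 CPM in KD with LPS. Untreated levels of KLF6 overlapped between the shRNAs, and LPS lowered it less in KD (interaction 0.76, standard error 0.11, adjusted p = 0.00151). RGS4, which ends G-protein signalling, was at 23.9, 31.6 and 22.7 CPM in scramble, 1.07, 0.859 and 1.52 CPM in scramble with LPS, 13.5, 14.2 and 22.4 CPM in KD and 3.68, 1.70 and 4.18 CPM in KD with LPS. The fall was by 4.48 on the log2 scale in scramble and by 2.41 in KD (interaction 2.07, standard error 0.41, adjusted p = 0.016). SGK1, a kinase induced by glucocorticoids, was at 98.9, 106 and 92.3 CPM in scramble, 64.4, 69.4 and 80.1 CPM in scramble with LPS, 284, 315 and 262 CPM in KD and 348, 322 and 359.7 CPM in KD with LPS, higher in every KD library than in any scramble library, and LPS lowered it in scramble only (interaction 0.73, standard error 0.13, adjusted p = 0.00703). CD55, which protects cells from complement, responded by -0.41 in scramble and 0.32 in KD (interaction 0.73, standard error 0.15, adjusted p = 0.0182).

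SPRED2, an inhibitor of the Ras to ERK route, responded by -0.90 in scramble and -0.30 in KD (interaction 0.60, standard error 0.13, adjusted p = 0.0302), TNFRSF12A, the receptor of TWEAK, by -1.45 in scramble and -0.87 in KD (interaction 0.57, standard error 0.13, adjusted p = 0.0312), and STARD4, a carrier of cholesterol, by -1.23 in scramble and -0.45 in KD (interaction 0.78, standard error 0.19, adjusted p = 0.0463). The call of RGS4 was lost without scramble replicate 2 or KD LPS replicate 3 (adjusted p up to 0.0559), that of CD55 without scramble replicate 1 or 2 or KD LPS replicate 1 or 3 (adjusted p up to 0.0622) and that of SPRED2 without scramble replicate 2 or 3, scramble LPS replicate 1 or 2, KD replicate 1 or 3 or KD LPS replicate 1 or 3 (adjusted p up to 0.0982). TNFRSF12A lost it without scramble replicate 1 or 2, scramble LPS replicate 1 or 3, KD replicate 1 or 2 or KD LPS replicate 1 or 2 (adjusted p up to 0.108) and with library size only (0.054), and STARD4 without scramble replicate 1, 2 or 3, scramble LPS replicate 1, 2 or 3, KD replicate 1 or 3 or KD LPS replicate 1, 2 or 3 (adjusted p up to 0.139) and with library size only, filterByExpr or the replicate block (0.0626, 0.0566 and 0.0507). Over the class of falls seen in scramble only, 37 of 63 genes had scramble with LPS as the 3 lowest libraries, against 3.22% of all genes tested, again in genes chosen by the same values.

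**Figure D3:**
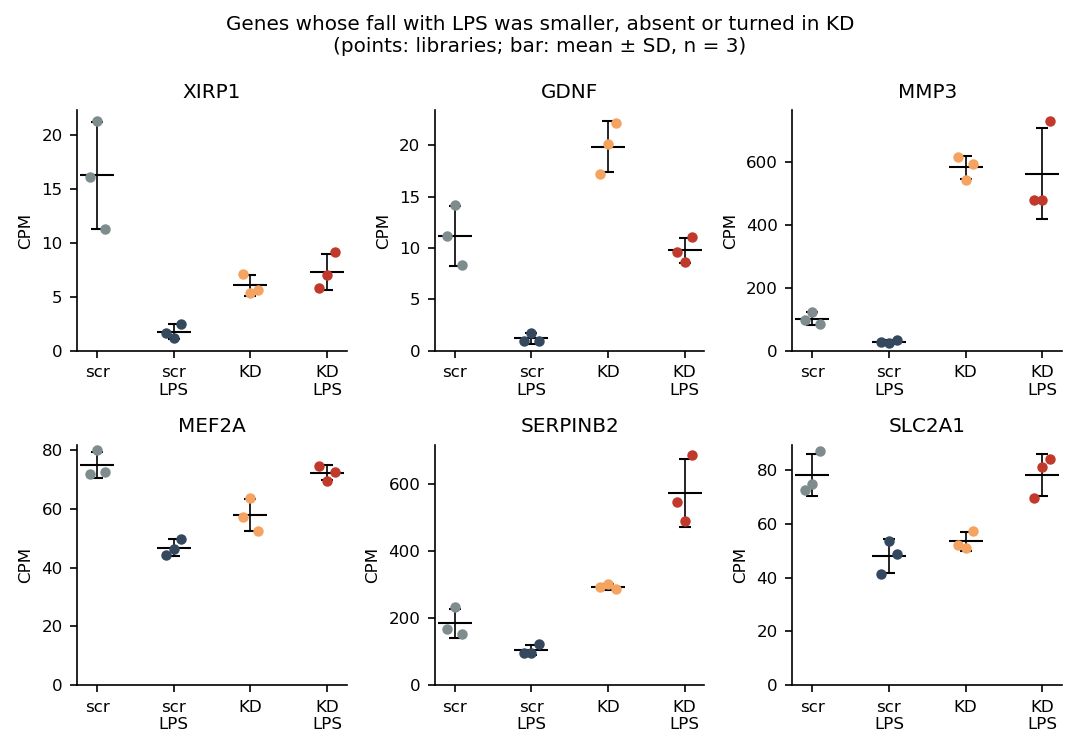
CPM per library (points) with mean ± SD (n = 3) for 6 genes that fell with LPS in scramble (scr). In KD they fell less as a fold, did not fall or rose. XIRP1, GDNF and MMP3 drop to the bottom of their panels only in scramble with LPS, and MEF2A, SERPINB2 and SLC2A1 rise between KD and KD with LPS.

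Negative interactions were fewer, and part of them were rises that were smaller as a fold and not as an amount. SOD2, the mitochondrial superoxide dismutase and a well-known NF-κB target, was at 834, 1008 and 859 CPM in scramble, 4366, 4679 and 4876 CPM in scramble with LPS, 2079.6, 2188 and 1876 CPM in KD and 6212, 5958 and 5841 CPM in KD with LPS. Its 4 groups did not overlap, and the level with LPS was higher in KD. LPS raised it by 2.37 on the log2 scale in scramble and by 1.55 in KD (interaction -0.81, standard error 0.11, adjusted p = 0.000992), while the mean gain was 3740 CPM in scramble and 3955 CPM in KD. CXCL5, a neutrophil chemokine, was at 142, 125 and 112 CPM in scramble, 545, 454 and 514 CPM in scramble with LPS, 612, 738 and 642 CPM in KD and 1359, 1355 and 1561 CPM in KD with LPS. The fold was again smaller in KD (interaction -0.89, standard error 0.14, adjusted p = 0.00235), but the mean gain of CXCL5 was 378 CPM in scramble and 761 CPM in KD. In the other 5 of the 7 genes with a smaller rise the gain in CPM was smaller in KD as well. SIM1, a transcription factor of the bHLH-PAS family, was one of these, at 13.5, 13.0 and 15.3 CPM in scramble, 54.3, 53.2 and 49.7 CPM in scramble with LPS, 6.83, 7.57 and 5.73 CPM in KD and 11.6, 10.9 and 9.35 CPM in KD with LPS (interaction -1.25, standard error 0.18, adjusted p = 0.00122).

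Rises seen in scramble only numbered 20. NABP1, a single-stranded DNA-binding protein, was at 32.1, 33.3 and 35.2 CPM in scramble, 76.5, 78.9 and 82.8 CPM in scramble with LPS, 55.6, 51.9 and 53.2 CPM in KD and 59.3, 63.6 and 55.6 CPM in KD with LPS. LPS took it above every other library in scramble and left it near its untreated level in KD (interaction -1.09, standard error 0.11, adjusted p = 0.000109). APOL6, of the apolipoprotein L family, was at 21.9, 26.2 and 28.9 CPM in scramble, 58.9, 65.0 and 69.0 CPM in scramble with LPS, 39.6, 38.9 and 29.1 CPM in KD and 48.0, 31.4 and 32.7 CPM in KD with LPS (interaction -1.27, standard error 0.22, adjusted p = 0.00589). NR4A1, an orphan nuclear receptor of the immediate early kind, was at 25.8, 27.8 and 34.9 CPM in scramble, 61.9, 79.6 and 71.4 CPM in scramble with LPS, 96.1, 85.5 and 67.6 CPM in KD and 104, 106 and 94.4 CPM in KD with LPS. KD without LPS was already above scramble with LPS in 2 of 3 libraries (interaction -0.98, standard error 0.18, adjusted p = 0.00997).

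The transcription factors ZFHX3 and ZNF462 responded by 1.09 in scramble and 0.26 in KD and by 1.03 in scramble and 0.21 in KD (interaction -0.83, standard error 0.13, adjusted p = 0.00235, and interaction -0.82, standard error 0.14, adjusted p = 0.00669). ZFP36L1, which binds AU-rich elements and promotes mRNA decay, responded by 0.71 in scramble and 0.18 in KD (interaction -0.53, standard error 0.12, adjusted p = 0.0378), a call that was lost without scramble replicate 1 or 2, scramble LPS replicate 2, KD replicate 1 or KD LPS replicate 1, 2 or 3 (adjusted p up to 0.12). In 15 of the 20 genes scramble with LPS held the 3 highest libraries, against 3.26% of all genes tested, again in genes chosen by the same values.

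**Figure D4:**
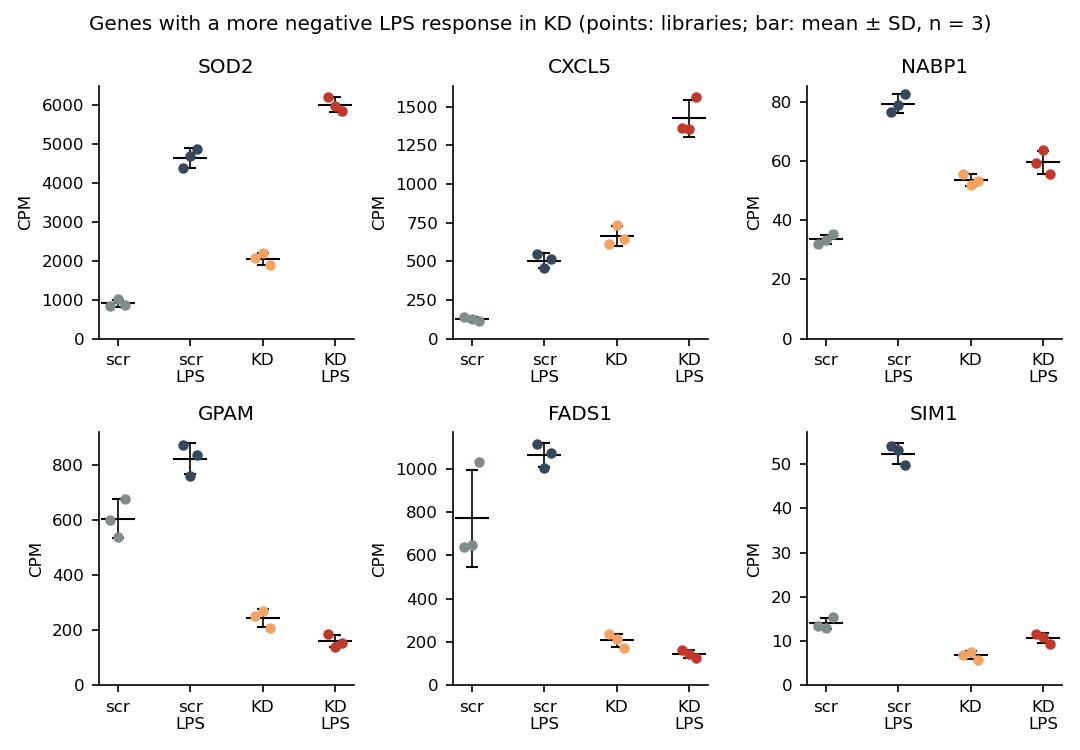
CPM per library (points) with mean ± SD (n = 3) for 6 genes with a negative interaction, in scramble (scr) and KD without and with LPS. SOD2 and CXCL5 are highest in KD with LPS although their fold is smaller there, and GPAM, FADS1 and SIM1 are far lower in KD than in scramble.

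Of the 57 negative interactions, 2 were in genes of fatty acid and triglyceride synthesis. Of 27 measured members of the lipogenesis list, 24 had a more negative response in KD, and 2 of these, GPAM and FADS1, passed the test, against 7 with DESeq2 and 7 with no filter. Of all 17173 genes tested, 8377 had a more negative response in KD, and 57 of these passed the test. In scramble 5 rose and 2 fell with LPS, and the 7 that responded in KD all fell. The list median was -0.50, or -0.31 without KD replicate 1. GPAM, the mitochondrial acyltransferase that starts triglyceride synthesis, was at 602, 538 and 678 CPM in scramble, 875, 762 and 837 CPM in scramble with LPS, 251, 271 and 208 CPM in KD and 185, 140.1 and 154 CPM in KD with LPS. It rose in scramble and fell in KD, from a level that was already lower in KD (interaction -1.05, standard error 0.16, adjusted p = 0.00186). FADS1, a desaturase of polyunsaturated fatty acids, was at 637, 649 and 1031 CPM in scramble, 1114, 1005 and 1073 CPM in scramble with LPS, 234, 213 and 173 CPM in KD and 162, 141 and 125 CPM in KD with LPS. Scramble replicate 3 lay with the LPS-treated libraries, apart from the other two (interaction -0.99, standard error 0.21, adjusted p = 0.0256).

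FASN, fatty acid synthase, responded by -0.16 in scramble and -0.71 in KD and DGAT2, the last enzyme of triglyceride synthesis, by -0.25 in scramble and -0.98 in KD, with interactions of -0.55 and -0.72 that did not pass (adjusted p = 0.087 and 0.139). ADRA2A, an adrenergic receptor that restrains lipolysis, was at 14.0, 10.7 and 8.01 CPM in scramble, 10.8, 8.36 and 9.91 CPM in scramble with LPS, 5.62, 4.70 and 4.12 CPM in KD and 1.16, 1.72 and 0.808 CPM in KD with LPS. It fell in KD only (interaction -1.76, standard error 0.36, adjusted p = 0.0196). In the list of adipocyte identity genes 17 of 23 had a more negative response in KD, against 8377 of all 17173 genes tested. Of the 23, 0 passed edgeR's test (8 at an unadjusted p under 0.05, and 2 by DESeq2, 1 in each direction), with a median of -0.60. PPARG, the master regulator of adipogenesis, responded by 0.13 in scramble and -0.58 in KD (interaction -0.71, adjusted p = 0.166).

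The summed level of the 8 adipocyte markers in KD was 1650, 1260 and 558 CPM without LPS and 1090, 741 and 467 CPM with LPS. All 8 markers are members of the adipocyte identity list, so that list and the sum are not independent. The part of this level in the result of these lists was not tested. The median of the adipocyte identity list was -0.27 without KD replicate 1 and -0.33 without KD LPS replicate 3. FADS1 lost its call without scramble replicate 1 or 2, scramble LPS replicate 1 or 3, KD replicate 1 or 2 or KD LPS replicate 2 or 3 (adjusted p up to 0.0889) and ADRA2A without scramble replicate 2, KD replicate 1 or KD LPS replicate 3 (adjusted p up to 0.0629), whereas GPAM kept it with each library left out.

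The other negative interactions named by the rule had varied roles. Falls seen in KD only numbered 20, and in 18 of these genes KD with LPS held the 3 lowest libraries, against 5.53% of all genes tested and in genes chosen by these values. PALMD, the cytoskeletal protein palmdelphin, was at 30.7, 26.0 and 28.9 CPM in scramble, 43.4, 60.8 and 55.5 CPM in scramble with LPS, 11.2, 8.21 and 3.48 CPM in KD and 2.15, 3.03 and 3.37 CPM in KD with LPS. It rose in scramble and fell in KD (interaction -2.32, standard error 0.38, adjusted p = 0.00455). MIDEAS, a subunit of a histone deacetylase complex, was at 31.0, 30.2 and 30.9 CPM in scramble, 43.3, 48.4 and 43.4 CPM in scramble with LPS, 32.9, 29.6 and 34.8 CPM in KD and 22.6, 20.6 and 26.6 CPM in KD with LPS. Untreated levels overlapped between the shRNAs, and LPS moved them apart (interaction -1.03, standard error 0.15, adjusted p = 0.00133). AKNA responded by 0.28 in scramble and -0.80 in KD (interaction -1.08, standard error 0.19, adjusted p = 0.0067), and TGFBI, an extracellular matrix protein, by 0.30 in scramble and -0.51 in KD (interaction -0.81, standard error 0.17, adjusted p = 0.0202), a call that was lost without scramble replicate 2, KD replicate 1 or KD LPS replicate 2 (adjusted p up to 0.069).

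SMIM11A had 84, 207 and 194 counts in scramble, 61, 357 and 295 in scramble with LPS, 355, 142 and 103 in KD and 0, 7 and 0 in KD with LPS. Its near-identical copy SMIM11B moved the other way, and reads of both cannot be told apart. When their counts were summed, the interaction of SMIM11A was -0.09 (adjusted p = 0.962), so that its call (interaction -7.37, standard error 1.17, adjusted p = 0.00296) is uncertain. The 3 genes that fell under both shRNAs and had the larger fold in KD were CMKLR1, a receptor of the adipokine chemerin, SYNPO and SCUBE3, with interactions of -1.31, -0.90 and -0.92. As an amount in CPM the fall was smaller in KD in all 3. These genes lay outside the rule and were chosen after their values were seen.

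The same 219 genes can be read as KD effects that depended on LPS. KD changed 147 of them without LPS and 183 with LPS, against 25.5% and 26.9% of all genes tested. In 72 the KD effect passed the test with LPS only, in 36 without LPS only and in 111 in both, of which 21 had opposite signs. Among the 21 genes with a larger rise, 10 were higher and 2 lower in KD without LPS, and 20 were higher and 1 lower with LPS. Among the 63 falls seen in scramble only, 16 were higher and 30 lower in KD without LPS, and 38 were higher and 8 lower with LPS. These counts share libraries with the interaction and describe it on another scale.

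Other lists held 0 to 3 called genes. Immediate early and AP-1 genes had 3 of 22 called, KLF6 and IER3 positive and NR4A1 negative, with a median of -0.01. MAP kinase feedback genes had 2 of 15 called, DUSP16 and SPRED2. Cholesterol genes had 2 of 24, INSIG1 and STARD4, both positive although the median was -0.18, or -0.077 without KD replicate 1 and -0.073 without scramble replicate 2. TNF superfamily genes had 2 of 18, FAS and TNFRSF12A, with a median of 0.57, or 0.35 without KD LPS replicate 2, and 0.53 over the 10 with a mean of at least 50 counts in a group. Among 20 cell proliferation genes 0 passed edgeR's test (1 at an unadjusted p under 0.05, and 0 by DESeq2), with a median of -0.05. The share called was 13.6% for immediate early, 13.3% for MAP kinase feedback, 8.33% for cholesterol and 11.1% for TNF superfamily genes. It was 1.28% over all genes tested, and the lists were chosen with earlier results of these data known.

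**Figure D5:**
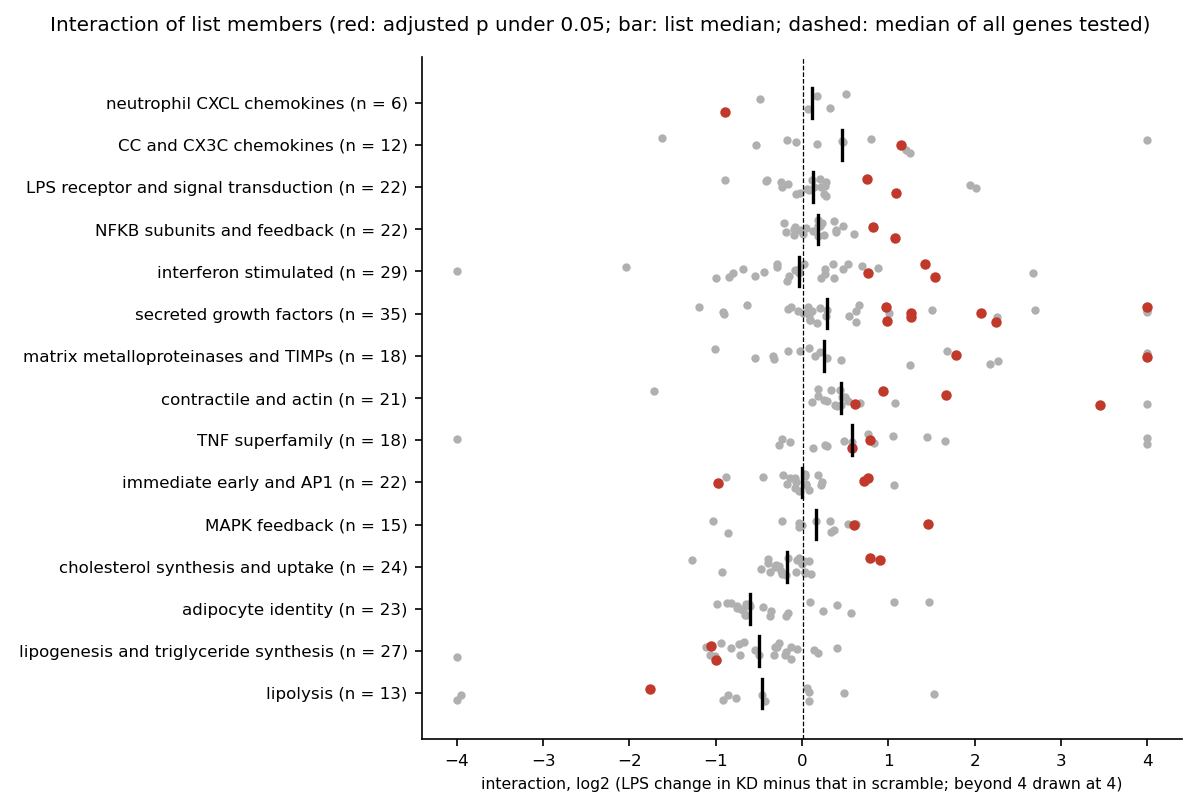
Interaction on the log2 scale (horizontal) of each measured member of 15 gene lists (rows), with called genes in red, list medians as bars and the median of all genes tested dashed. The bars of the contractile and growth factor lists lie to the right of the dashed line, at 0.45 and 0.29, and those of the lipogenesis and adipocyte identity lists lie to its left, at -0.50 and -0.60.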

How the data were processed

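RNA was sequenced from 12 libraries of 4 groups. The authors deposited 1 table of kallisto estimated counts summed per gene name. kallisto 0.44.0, GRCh38 and DESeq2 1.32.0 are named in the submitters' processing notes, and the annotation release is not given in the sources used here. The deposited estimated counts are whole numbers and were used as they stand. A row without a gene name, 0.235 to 0.306% of counts per library, was left out, and of 28901 gene names the 17173 with at least 10 counts over all libraries were tested. Counts totalled 28.4 to 53.8 M per library.

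The interaction (KD with LPS minus KD, less scramble with LPS minus scramble) and both LPS responses were tested in 1 fit to all 12 libraries with edgeR 4.0.16 (quasi-likelihood, TMM) in R 4.3.3, two-sided, with Benjamini-Hochberg adjusted p under 0.05. A gene that passed was classed by whether its LPS response passed in KD, in scramble or in both. Named genes were the 12 with the smallest p per direction among those with a mean of at least 50 counts in a group, called members of 29 gene lists, up to 6 reversed genes and genes the study follows, and 1 gene the rule picked is not reported here. The members and lists were chosen with earlier results of these data known. Nothing in the labels ties the libraries to separate cultures beyond replicate numbers, so p-values may measure technical spread only.

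The test was tried first on simulated counts with known changes. There edgeR recovered 25.4% of 1.5-fold, 73.1% of 2-fold and 89.4% of 4-fold interactions. False calls made up 9.42% of its calls and 18.1% of those of DESeq2. The alternatives were DESeq2 1.42.0, its size factors in edgeR, library size only, no filter, filterByExpr, a 2-fold minimum, a replicate block, leaving out each library and, added after seeing the data, SMIM11A and SMIM11B summed. Promoters are RefSeq's (GRCh38.p14).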

Additional observations from a re-analysis of the deposited data

Results flagged for a closer look

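The LPS response differed between KD and scramble in 219 genes by edgeR's test of the interaction itself, and each of these named genes was listed for a closer look for that reason. The interactions on the log2 scale were 1.24 for SDC4, 1.17 for IL6, 1.15 for CCL2, 0.96 for PTGS2, 1.07 for TNIP3, 0.82 for IRAK2, 0.71 for ZC3H12C, 1.03 for CFB, 1.02 for TSC22D1 and 0.77 for GBP3, all genes that rose more in KD.

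Among genes that rose in KD only, the interactions were 1.26 for FGF2, 1.26 for EREG, 1.21 for RCAN1, 1.43 for GBP1, 1.54 for GBP2, 1.17 for GRAMD1A, 0.97 for BDNF, 0.79 for FAS, 0.90 for INSIG1, 6.01 for WNT2, 1.46 for DUSP16 and 0.72 for IER3.

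Genes with a fall in scramble that was smaller, absent or reversed in KD had interactions of 3.45 for XIRP1, 1.66 for SYNPO2, 0.94 for CCN2, 0.61 for AMOTL2, 1.78 for MMP3, 4.76 for MMP10, 2.24 for GDNF, 0.98 for STC2, 1.79 for SERPINB2, 1.25 for SLC2A1, 1.00 for MEF2A, 0.76 for KLF6, 2.07 for RGS4, 0.73 for SGK1, 0.73 for CD55, 0.60 for SPRED2, 0.57 for TNFRSF12A, 0.78 for STARD4, 1.09 for TLR4, 0.82 for IL1RAP and 0.75 for MAP2K3.

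The negative interactions were -0.81 for SOD2, -0.89 for CXCL5, -1.25 for SIM1, -1.09 for NABP1, -1.27 for APOL6, -0.98 for NR4A1, -0.83 for ZFHX3, -0.82 for ZNF462, -0.53 for ZFP36L1, -1.05 for GPAM, -0.99 for FADS1, -1.76 for ADRA2A, -2.32 for PALMD, -1.03 for MIDEAS, -1.08 for AKNA, -0.81 for TGFBI and -7.37 for SMIM11A. The call of SMIM11A was lost when its counts were summed with those of SMIM11B.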

How the results depend on the processing

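The counts of called genes moved with the tool, and 87 of the 219 genes (69 positive and 18 negative, 15 of them reversed) were called in each of the 12 fits that left out a library and in 6 refits with DESeq2, its size factors in edgeR, library size only, no filter, filterByExpr and the replicate block. The 87 include SMIM11A, which lost its call when summed with SMIM11B. The 219 genes, 162 positive and 57 negative, became 475, 306 and 169 with DESeq2, 431, 266 and 165 with no filter, and 74, 54 and 20 with a 2-fold minimum. Of the 219, 218 were also called by DESeq2 and 218 with no filter, and the share with a positive value was 74.0%, 64.4% with DESeq2 and 61.7% with no filter. Larger, KD only, smaller and scramble only responses, 24, 65, 27 and 83 genes, became 48, 137, 63 and 183 with DESeq2, 38, 131, 65 and 162 with no filter, and 8, 23, 7 and 26 with a 2-fold minimum. The 20 reversed genes became 10 with a 2-fold minimum and 13 with library size only.

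With each library left out, the total ranged from 92 to 243, positive values from 72 to 168, negative values from 20 to 98, larger responses from 9 to 21, KD only from 30 to 81, smaller from 13 to 30, scramble only from 30 to 98 and reversed from 9 to 23. LPS responses ranged from 1443 to 2324 genes in scramble and from 1493 to 2096 in KD. The total fell to 92 without scramble replicate 2, 131 without KD replicate 1, 136 without KD LPS replicate 2 and 116 without KD LPS replicate 3. Without KD replicate 3 the negative values rose to 98, without KD LPS replicate 1 the positive values fell to 107, and the LPS response in scramble was 1443 genes without scramble replicate 2. The interaction of TNF turned to -0.029 with the replicate block and to -0.23 without scramble replicate 3, with a range of -0.23 to 1.93 over the libraries left out, and the cause was not tested. That of IL1B passed with no filter (1.18, adjusted p = 0.0125) and with the replicate block (1.18, adjusted p = 0.0223).

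The replicate numbers are shared between groups, but their deviations correlated at -0.254 to 0.284 over 10222 genes, with 6 of 18 pairs over 0.1, and nothing else pairs them. With the replicate number as a block, 231 genes were called, 202 of them among the 219. The median standard error of an interaction was 0.18 on the log2 scale among genes averaging at least 50 counts in a group, and the smallest called interaction was 0.39 in size, so that a gene not called may still differ.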

Other observations

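Further called genes were chosen here after their values were seen, outside the naming rule. RIPK2, the kinase that relays signals of intracellular receptors for bacterial cell wall to NF-κB, rose by 0.83 on the log2 scale in scramble and 1.71 in KD (interaction 0.88, standard error 0.13, adjusted p = 0.00186 by edgeR). TRAF3IP2, the adaptor of the IL-17 receptor, rose by 0.41 in scramble and 0.95 in KD (interaction 0.54, adjusted p = 0.0207). PDE4B, a phosphodiesterase that breaks down cAMP, rose by 0.57 and 1.51 (interaction 0.94, adjusted p = 0.03), and PLAT, the tissue plasminogen activator, by 0.45 and 1.33 (interaction 0.88, adjusted p = 0.0302).

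THBS1, the matricellular protein thrombospondin-1, fell in scramble by 0.91 on the log2 scale and responded by -0.17 in KD, where the test was not passed (interaction 0.73, adjusted p = 0.00945). The transcription factors ETS1 and FOXP1 turned from a fall to a rise. ETS1 responded by -0.53 in scramble and 0.31 in KD (interaction 0.84, adjusted p = 0.00235), and FOXP1 by -0.30 in scramble and 0.48 in KD (interaction 0.77, adjusted p = 0.00575). CPT1A, which admits fatty acids into mitochondria for oxidation, fell in scramble only, at -0.67 against 0.14 in KD (interaction 0.82, adjusted p = 0.0202). In the opposite direction IGF1, insulin-like growth factor 1, rose by 1.03 in scramble and responded by 0.13 in KD (interaction -0.90, adjusted p = 0.0347).

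Some other lists held 1 called gene each, against 1.28% of all genes tested. RGS proteins had 1 of 14 (7.14%) and prostaglandin genes 1 of 15 (6.67%). Fibrillar collagen and matrix genes had 1 of 19 (5.26%) and glucocorticoid-responsive genes 1 of 14 (7.14%). Among 9 macrophage and 9 endothelial markers tested, 0 passed edgeR's test, with 4 and 1 at an unadjusted p under 0.05, and 0 and 1 passed DESeq2's.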
